A study of Mus musculus with 2 samples.

Results

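The genes described here are 10 neuropeptide precursors of the mouse hippocampus, Sst, Npy, Cck, Vip, Penk, Pdyn, Tac1, Crh, Nts and Cort, of 55536 annotated mouse genes, 22028 of them protein-coding. They were chosen by name, as a set of peptide genes known from hippocampal neurons, and each was matched by its symbol and gene identifier in the deposited tables, so that all 10 were found. Total RNA, with ribosomal RNA reduced per the spike-in label, was sequenced from hippocampal tissue of 2 male mice of the strain B6CASTF1/J, the first-generation hybrid of C57BL/6J and CAST/EiJ, at 36 days of age. Both animals belong to 1 group, for which the labels name no treatment or mutation, so the design holds no contrast between conditions, and the questions it allows are how high each precursor was and how far the animals differed. The labels name the tissue as layer of hippocampus without saying which part was dissected, and they give 1 donor identifier to both samples but separate biosamples and biological replicate numbers, from which the samples were read as 2 animals. Levels are in TPM, a relative abundance of transcripts corrected for transcript length, and coordinates are of mm10.

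A neuropeptide gene encodes a long precursor that enters the secretory pathway, where convertases cut it at pairs of basic residues, carboxypeptidase E trims the ends and many products are amidated. The peptides are stored in dense-core vesicles, released during sustained firing and read by G-protein-coupled receptors on other cells. In the hippocampus Sst, Npy, Cck, Vip and Cort are known from classes of GABAergic interneurons, Cck also from pyramidal cells, Penk and Pdyn (opioids) from interneurons, granule cells and their mossy fibres, Tac1 and Crh from interneurons, and Nts from the subiculum.

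Gene counts summed to 28665109 in replicate 1 and 29633722 in replicate 2, and ERCC spike-ins added 121099 and 121306. All 13 fixed markers of hippocampal excitatory neurons reached 1 TPM in both libraries, as did 17 of 19 genes of the inhibitory neuron list. The latter included the GABA-synthesising enzyme Gad1 (139 and 137 TPM) and the calcium-binding protein Calb1 (60.52 and 72.11 TPM). Prox1 is in both lists, and whether the other genes are confined to those cells was not tested. The libraries stood apart in choroid plexus RNA: all 9 tested genes of that list were higher in replicate 2, 8 of them at least 1.5-fold, and the summed level of its 10 genes was 9.68 TPM in replicate 1 and 194 TPM in replicate 2, most of it from the transthyretin gene Ttr (3.62 and 179 TPM). Of 12 hypothalamic markers, 11 were under 1 TPM in both libraries of the gene table, with Hcrt and Kiss1 at 0 in both. In the second transcript table, Pomc (2.01 and 1.74 TPM), Cartpt (2.44 and 1.20) and Hdc (1.15 and 1.62) were above 1 in both. Oxt had 1.30 and 0.969 there. Of 11 markers of striatum and amygdala, 7 reached 1 TPM in both, led by Foxp1 (39.18 and 32.60 TPM), Pde10a and Ppp1r1b, while Isl1 and Six3 were at or under 0.10 TPM. All 6 neocortical markers, led by Fezf2 (21.15 and 16.23 TPM), and all 5 thalamic markers, led by Prkcd (12.39 and 13.25 TPM), reached 1 TPM in both libraries. The median log2 ratio of replicate 2 over replicate 1 was -0.11 for the neocortical and 0.22 for the thalamic list. The part of neighbouring tissue in the levels of these precursors was not tested. In bulk tissue, fewer cells of a type and less RNA per cell cannot be told apart.

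The 10 precursors spanned a 265-fold range of mean level in the gene table (435-fold in the second transcript table), and 2 of them made up most of their summed level. Cck reached 279.9 TPM in replicate 1 and 268 in replicate 2, a mean of 274 ± 8.35 (SD, n = 2), and stood at rank 151 of the protein-coding genes. Sst had 174 and 148 TPM, a mean of 161 ± 17.9, at rank 386. Together they held 82.4% and 82.0% of the summed level of the 10 genes, which was 550.1 and 508 TPM. Npy followed at 53.32 and 49.94 TPM (51.6 ± 2.39) and rank 1875, and Penk at 16.09 and 16.80 TPM (16.4 ± 0.502) and rank 5983. The other 6 genes had means of 6.48 TPM or less. Of the 10 genes, 9 reached 1 TPM in both libraries, against 57.8% of all protein-coding genes. The exception was Crh, at 1.23 TPM in replicate 1 and 0.84 TPM in replicate 2.

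**Figure D1:**
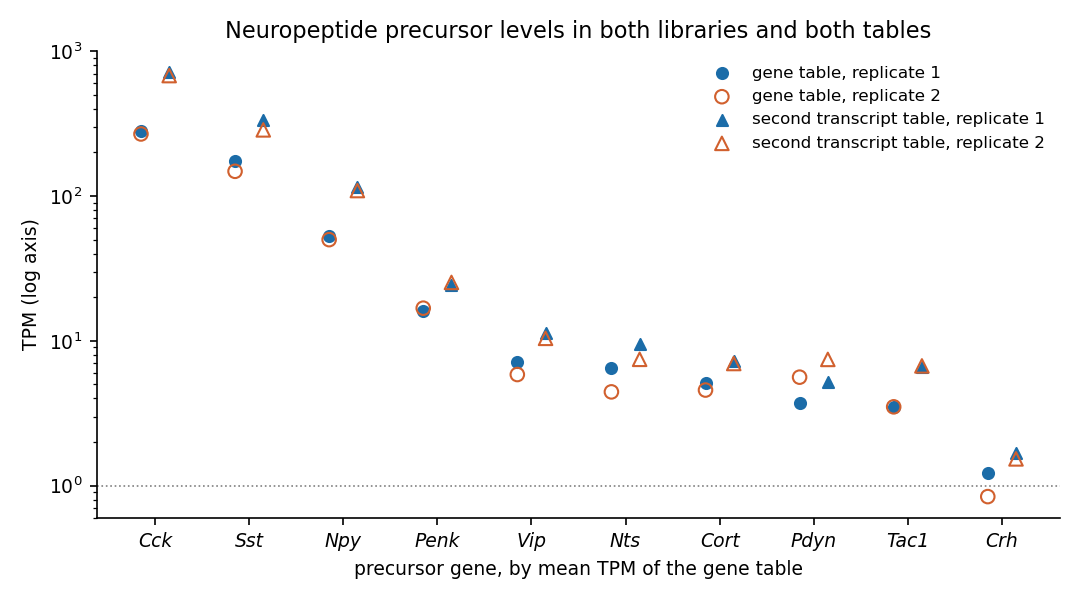
TPM (log axis) of the 10 precursor genes, ordered by mean level in the gene table, with circles for the gene table and triangles for the second transcript table, filled for replicate 1 and open for replicate 2. Cck and Sst lie above 100 TPM in both libraries of the gene table, and Crh lies on either side of the dotted line at 1 TPM.

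In the order of levels, the libraries of 6 of the 9 neighbouring pairs did not overlap. Cck stood 1.70 times above Sst by mean TPM, Sst 3.12 times above Npy, Npy 3.14 times above Penk and Penk 2.54 times above Vip. Vip, Nts, Cort and Pdyn formed a run in which no gene was separated from its neighbour, because both libraries' values overlapped for Vip with Nts, Nts with Cort and Cort with Pdyn. Pdyn lay 1.33 times above Tac1 and Tac1 3.39 times above Crh, without overlap. With 2 libraries a difference in level between genes can be described but not tested.

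The start regions of these genes differ in a sequence that cyclic AMP signalling is known to act through. The cAMP response element, TGACGTCA, is bound by the transcription factor CREB, its 5-base core TGACG is bound more weakly, and the Sst promoter is a textbook example of it. RefSeq promoters (GRCm38.p6, the assembly of mm10, from 250 bases before to 50 after each start) matched 8 of the 10 genes, with 2 promoters for Pdyn; Penk and Crh are named only. Both strands were searched, and each full element also contains the core. Only the Sst promoter of these held the full element, as did 1.79% of 32851 RefSeq promoters of 300 bases. The core was in 6 of the 8 genes (Sst, Cck, Vip, Nts, Cort and Tac1), against 20.8% of all promoters, and it was not found in these windows of Npy and Pdyn. A match is a description of these letters and not a measured site. The lines give 30 bases around each match, 5′ to 3′ on the strand of the gene, with the match in capitals (CGTCA is the core on the opposite strand), to show what the genes share.
Sst, chr16:23890874-23890903: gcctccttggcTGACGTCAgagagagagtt
Cck, chr9:121495725-121495754: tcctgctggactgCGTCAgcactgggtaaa
Vip, chr10:5639126-5639155: gggatcactactgTGACGtctttcggggag
Nts, chr10:102490568-102490597: aattagggaagatCGTCActttccatcaag
Cort, chr4:149126765-149126794: gctccggcttgtgCGTCAccgcgtgagtgt
Tac1, chr6:7554851-7554880: ttccctaaaattgCGTCAtttcgaacacaa
Tac1, chr6:7555005-7555034: ggctctacaggctCGTCAcgcctgagataa

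Counted back from the RefSeq start, the Sst element began at base 48 and ended at base 41, and it lay within the first exon of the GENCODE transcript Sst-201, whose annotated start is farther upstream. The core began 47 bases before the start in Cck, 79 in Vip, 166 in Nts, 18 in Cort, and 197 and 43 in Tac1. The Tac1 match at 43 lay within the first exon of the GENCODE transcript Tac1-205, whose annotated start is also farther upstream. Genes with the core lay from the top of the order (Cck, 274 TPM) to near its bottom (Tac1, 3.50 TPM), and the genes without it in this window were Npy (51.6 TPM) and Pdyn (4.66 TPM). All 17 fixed genes of CREB and of activity-regulated transcription reached 1 TPM in both libraries, led by the coactivator Crtc1 (70.78 and 73.82 TPM), Atf2 (56.56 and 56.84 TPM) and the synaptic gene Arc (38.50 and 46.94 TPM).

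The measured difference between the animals was under 1.5-fold for each of these genes, which does not show that all differences were small. The exact binomial intervals reached 2.63-fold higher in replicate 1 for Crh, 1.85-fold for Nts and 1.61-fold for Cort. For Pdyn the interval reached 1.73-fold higher in replicate 2. The intervals of all other precursors stayed within 1.5-fold. None of the 10 was called apart, which required an adjusted p under 0.05 in the exact binomial test of scaled counts and at least a 1.5-fold difference; 1.88% of 18270 tested genes were (344 genes), 1.22% higher in replicate 2 and 0.662% higher in replicate 1. With so low a share, none of 10 does not set these genes apart from others. Without the minimum fold, 3 of the 10 passed, namely Sst, Nts and Pdyn, where 11.4% of all tested genes passed. Sst and Nts were higher in replicate 1 (4.83% of genes passed in that direction) and Pdyn was higher in replicate 2 (6.52%). The log2 ratio of replicate 2 over replicate 1 pointed to replicate 1 in 8 genes and to replicate 2 in Penk and Pdyn, and Penk turned to -0.01 in the second table. Its median over the 10 genes was -0.10, beside -0.00243 over all tested genes, of which 50.6% pointed to replicate 1. These tests compare 2 libraries by counting error alone, and with 1 animal each they hold no replicate check.

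**Figure D2:**
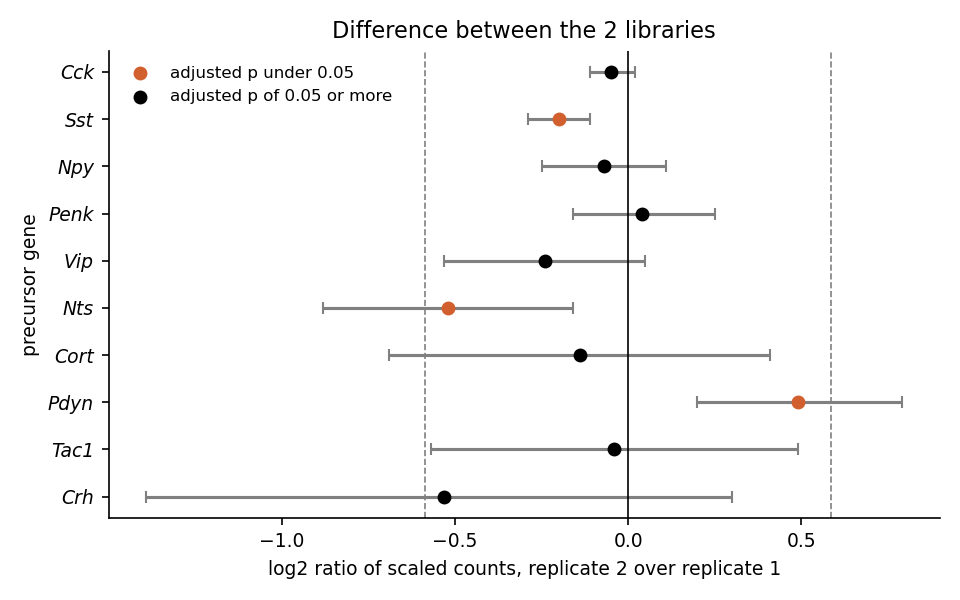
Log2 ratio of scaled counts (replicate 2 over replicate 1, points) with exact 95% intervals (bars) for the 10 precursor genes, orange where the adjusted p was under 0.05; dashed lines mark 1.5-fold. Sst and Nts lie left of 0 and Pdyn right of it with intervals that leave out 0, and every point lies between the dashed lines.

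Sst (chr16:23889573-23890958, minus strand) encodes somatostatin, the peptide of dendrite-targeting interneurons. Its counts were 2220 and 1989 in replicates 1 and 2, which gave a log2 ratio of -0.20 with a 95% interval of -0.29 to -0.11 (adjusted p = 1.71e-04, exact binomial test). Replicate 1 was thus the higher by 1.15-fold, a difference smaller than the 1.5-fold minimum. The direction and the adjusted p held under all 6 other scalings, count filters and tables, with adjusted p from 2.76e-05 to 0.00412 in the exact binomial test. The 19 fixed inhibitory neuron genes had a median log2 ratio of -0.08 over 18 tested. Of these, 14 pointed to replicate 1, as did 50.6% of all tested genes. In that list, 2 genes passed the adjusted p higher in replicate 2 (6.52% of all tested genes did). They were Prox1 (1.41-fold), which is also in the excitatory neuron list, and Calb1 (1.22-fold). Whether Calb1 is confined to inhibitory neurons was not tested. Only 1 gene, Gad2 (1.08-fold), passed higher in replicate 1 (4.83% did). These genes were named after their values were seen. The part of inhibitory neurons in the Sst difference was not tested.

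Cort (chr4:149125034-149126763, minus strand) encodes cortistatin, a relative of somatostatin that binds the same receptors. It had 5.13 and 4.57 TPM (4.85 ± 0.396) from 61 and 57 counts, so Sst stood 33.8 and 32.4 times above it. The difference between the libraries did not pass the test (log2 ratio -0.14, interval -0.69 to 0.41, adjusted p = 0.879, exact binomial test), and its interval reaches from 1.61-fold higher in replicate 1 to 1.32-fold higher in replicate 2. The kinship of both genes is visible in the last 48 coding bases of Sst, which hold the codons of somatostatin, and in the matching stretch of Cort, which ends 3 bases before its coding sequence does. Capitals mark the bases that are the same at the same position, 34 of 48 (70.8%), and the longest shared run was 21 bases.
Sst, chr16:23889732-23889779: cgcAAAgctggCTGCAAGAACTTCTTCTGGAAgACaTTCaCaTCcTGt
Cort, chr4:149125270-149125317: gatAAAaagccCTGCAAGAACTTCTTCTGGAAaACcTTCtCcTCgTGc

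No longer run than those 21 bases was shared anywhere between the whole Sst and Cort transcripts. The deposited posterior SD of the count was 0 for all 10 precursor genes in both libraries, so the authors' model left these gene counts no uncertainty from shared reads.

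Npy (chr6:49822710-49829507, plus strand) encodes neuropeptide Y, a peptide of dendrite-targeting and neurogliaform interneurons that dampens glutamate release. Its 512 and 503 counts gave a log2 ratio of -0.07 (interval -0.25 to 0.11, adjusted p = 0.774, exact binomial test). Cck (chr9:121489824-121495694, minus strand) encodes cholecystokinin, known from basket cells that carry cannabinoid receptors. Its 3396 and 3388 counts gave -0.05 (interval -0.11 to 0.02, adjusted p = 0.517, exact binomial test), the narrowest interval of the 10. For Vip (chr10:5639218-5647617, plus strand), the vasoactive intestinal peptide of interneurons that target other interneurons, 7.11 and 5.85 TPM (6.48 ± 0.891) came from 211 and 184 counts. Replicate 1 was 1.18-fold higher for Vip, within counting error (interval of log2 ratio -0.53 to 0.05, adjusted p = 0.362, exact binomial test).

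Of the opioid precursors, Pdyn differed between the animals and Penk did not pass the test. Penk (chr4:4133531-4138819, minus strand), which encodes the enkephalins, had 390 and 414 counts and a log2 ratio of 0.04 (interval -0.16 to 0.25, adjusted p = 0.892, exact binomial test). Pdyn (chr2:129686565-129699844, minus strand), which encodes the dynorphins of the mossy fibres, lay at 3.70 and 5.61 TPM (4.66 ± 1.35), from 161 and 233 counts. Pdyn was 1.40-fold higher in replicate 2 (log2 ratio 0.49, interval 0.20 to 0.79, adjusted p = 0.0113, exact binomial test), and the call held under all 6 alternatives (adjusted p from 0.00440 to 0.0329, exact binomial test). Penk stood 4.35 times above Pdyn by TPM in replicate 1 and 2.99 times in replicate 2. The 13 excitatory neuron markers were split, with 6 pointing to replicate 2 and 7 to replicate 1, 4 passing the adjusted p in each direction and a median log2 ratio of -0.01 (0.03 with ERCC totals). Among them, 3 of dentate granule cells, which are known to express Pdyn and were singled out after their values were seen, were higher in replicate 2: Dsp 1.60-fold (4.21 and 6.94 TPM), Prox1 1.41-fold (32.94 and 45.11 TPM) and C1ql2 1.23-fold (26.50 and 32.07 TPM). Camk2a (1.08-fold) also passed the adjusted p higher in replicate 2. Those that passed higher in replicate 1 were Wfs1 (1.19-fold), Fibcd1 (1.17-fold), Neurod6 (1.15-fold) and Mpped1 (1.14-fold), likewise named after their values were seen. The choroid plexus list, at 9.68 and 194 TPM, was higher in replicate 2, as Pdyn was. The part of granule cells and of choroid plexus in the Pdyn difference was not tested.

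Reads of Penk carry a limit from its surroundings. On the plus strand, the noncoding gene A830012C17Rik overlaps 499 bases of the Penk locus, and the strand setting of the counting is not given in the sources used here. That antisense gene held 1 and 2 counts, beside 390 and 414 for Penk.

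Nts (chr10:102481756-102490486, minus strand) encodes neurotensin together with neuromedin N. Its level was 6.48 and 4.44 TPM (5.46 ± 1.44), from 153 and 110 counts. Nts was 1.43-fold higher in replicate 1 (log2 ratio -0.52, interval -0.88 to -0.16, adjusted p = 0.0418, exact binomial test). The call ended under 3 of 6 alternatives, with adjusted p = 0.0572 by ERCC totals, 0.0616 with no filter on low counts and 0.290 in the second table, all by the exact binomial test. The 6 subiculum markers had a median log2 ratio of -0.15, with 4 pointing to replicate 1. Of these, Tpbg, singled out after its values were seen, was 1.46-fold higher in replicate 1 (4.48 and 2.61 TPM, adjusted p = 0.00235, exact binomial test). The part of the subiculum in the dissected tissue was not tested.

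Tac1 (chr6:7554879-7565834, plus strand) encodes substance P and neurokinin A. It had 3.51 and 3.50 TPM from 63 counts in each library, a log2 ratio of -0.04 with an interval of -0.57 to 0.49 (adjusted p = 0.995, exact binomial test). The near-identical TPM values are closer than counting error can resolve, since 63 counts have an exact 95% interval of 48.4 to 80.6. Crh (chr3:19693401-19695396, minus strand), the corticotropin-releasing hormone of stress signalling, had 31 and 22 counts, the fewest of the 10. Its ratio of 1.44-fold toward replicate 1 had an interval from 0.813 to 2.63 (adjusted p = 0.539, exact binomial test), so a difference was not detectable at this depth.

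Splicing of Tac1 decides which peptides can be made, and 63 counts left it poorly resolved. Exons are numbered as in Tac1-205, whose 7 exons hold all the coding parts (the beta form); Tac1-203 lacks exon 4 (the gamma form) and Tac1-201 lacks exon 6 (the alpha form, which cannot give neurokinin A). Both exons keep the reading frame when skipped, at 45 and 54 bases. Their sequences on the gene's strand are shown because reads over them or across their junctions tell the forms apart.
Exon 4, chr6:7557216-7557260: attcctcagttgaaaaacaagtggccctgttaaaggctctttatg
Exon 6, chr6:7559099-7559152: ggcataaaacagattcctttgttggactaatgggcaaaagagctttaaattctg

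In the first transcript table, Tac1-205 held 54.5% of the gene's TPM in replicate 1 and 31.2% in replicate 2, Tac1-203 held 40.6% and 42.8%, and Tac1-201 held 0% and 26.1%. The second table gave Tac1-205 71.3% and 46.8%, Tac1-203 0% and 36.5%, and Tac1-201 0% and 8.88%. A short transcript, Tac1-204, had 28.7% and 7.83% there from 3.57 and 1.00 counts, against 4.90% and 0% in the first table. Tac1-205 led by mean share in both tables, but in replicate 2 of the first table Tac1-203 was above it.

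The 10 genes had 23 annotated transcripts, and 5 genes had only 1 (Sst, Npy, Nts, Cort and Crh). The leading transcript was the same in both transcript tables for 9 of the 10, and for 4 of the 5 with several. Cck was the exception. The first table assigned 90.9% and 91.4% of Cck to Cck-201, and the second split it over Cck-201 (24.4% and 29.6%), Cck-203 (36.3% and 37.1%) and Cck-205 (38.6% and 32.3%). These are shares of TPM. By counts the second table gave Cck-203 1749 and 1710, Cck-201 933 and 1079, and Cck-205 only 649 and 517. The effective length of Cck-205 was 155 and 153 bases there, which raises its TPM per count. Cck-205 held 0.480% and 0.420% in the first table, and it has 0 bases that no other Cck transcript contains. Cck-203 has 201 such bases, and its first exon starts downstream of that of Cck-201. Both libraries repeated each table's own split, so the tables differed by more than the animals did.

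Penk, Pdyn and Vip were led by their first-numbered transcript in both tables. Penk-201 had 76.4% and 71.5% in the first table and 100% and 94.3% in the second, and the rest was Penk-202, with 23.6% and 28.5% in the first and 0% and 5.74% in the second. Pdyn-201 had 91.5% and 81.6% against 100% and 94.3%. Pdyn-202, which starts at the second RefSeq promoter of the gene, had 8.53% and 14.7% in the first table, from 1.75 and 4.81 counts, and 0% in the second. Vip-201 had 98.7% and 97.3% in the first table and 97.6% and 96.1% in the second.

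**Figure D3:**
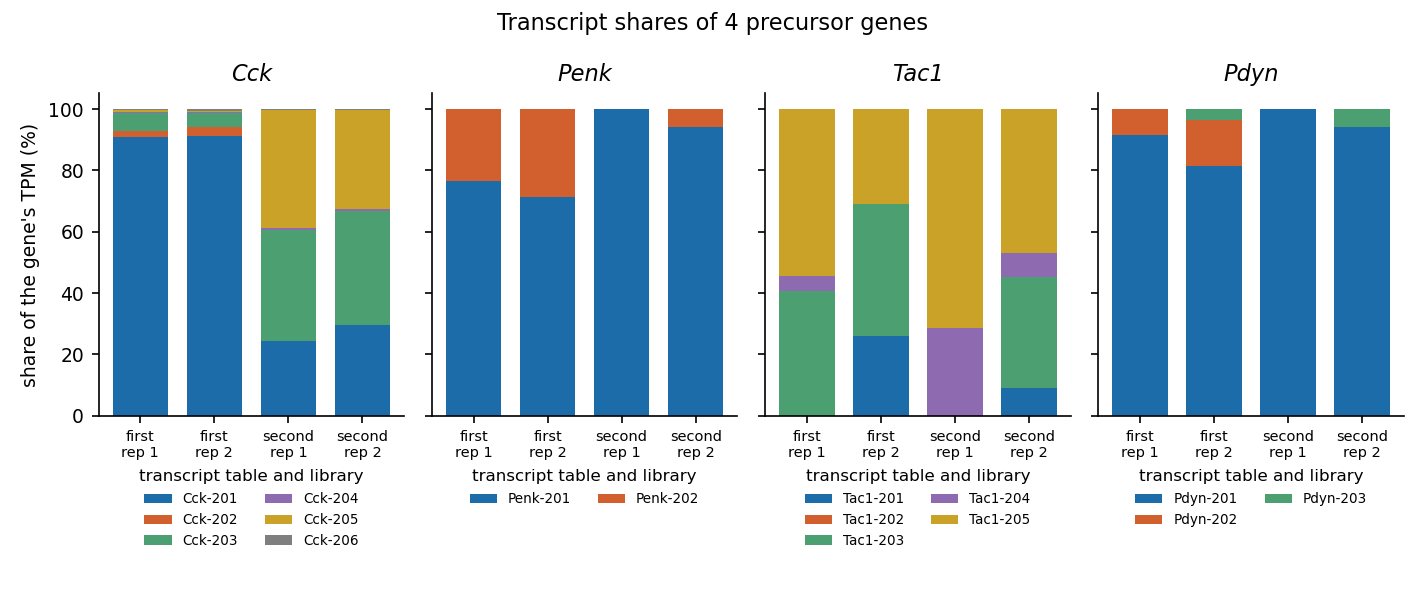
Share of each gene's TPM (%, stacked bars) held by the transcripts of Cck, Penk, Tac1 and Pdyn in the first and second transcript tables for replicates 1 and 2. Cck-201 fills over 90% of the first table's bars and under 30% of the second's, and the Tac1 bars differ between libraries as well as between tables.

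Gene levels also depended on the table. In the second table all 10 genes had higher TPM, by 2.56 and 2.53 times for Cck, 2.18 and 2.17 for Npy, 1.92 and 1.93 for Sst, 1.88 and 1.92 for Tac1, and 1.40 and 1.33 for Pdyn in replicates 1 and 2, beside a median of 1.69 and 1.72 over all tested genes. Protein-coding genes held 44.9% and 43.8% of TPM in the gene table and 78.7% and 78.5% in the second, and the small noncoding RNAs Rn7s1, Rn7s2 and Rn7sk held 37.0% and 38.1% against 3.91e-04% and 1.86e-04%. Rescaled over protein-coding genes alone, the second table was still above the first for Cck (1.47 and 1.42 times), Npy (1.25 and 1.22), Sst (1.10 and 1.08) and Tac1 (1.08 and 1.07), and below it for Pdyn (0.799 and 0.743), Cort (0.807 and 0.855), Nts (0.835 and 0.940), Penk (0.866 and 0.845) and Vip (0.907 and 0.993). Crh was below it in replicate 1 (0.784) and above it in replicate 2 (1.02). Effective lengths differed too. Over the 23 transcripts of these genes they were 99 bases under the transcript length in the first table, and in the second 278 to 339 bases under it in replicate 1 and 279 to 342 in replicate 2, which weighs most on short transcripts such as Npy-201 (566 bases). Ratios between the precursors differed as well. Cck stood 1.61 and 1.81 times above Sst in the gene table and 2.15 and 2.37 times in the second.

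Counts moved the other way for several of these genes. The second table held fewer counts for 8 of the 10 in replicate 1 and for 6 in replicate 2, against 19.6% and 21.1% of all tested genes. Cort had 37 and 36 counts there against 61 and 57, a ratio of 0.607 and 0.632, and only 4.08% and 4.27% of genes had a lower ratio. Npy had 404 and 380 against 512 and 503, and Sst 1928 and 1672 against 2220 and 1989. By the second table's TPM the order was the same except that Tac1 (6.66 ± 0.0745) stood above Pdyn (6.30 ± 1.60), with overlapping libraries, and 8 of the 9 neighbouring pairs did not overlap. When the second table's counts were put on the first table's effective length, Cort (5.43 and 5.19) came below Pdyn (5.93 and 8.35) and Tac1 (5.66 and 5.82) without overlap, so the place of Cort among the low genes depended on the table.

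Of 26 fixed genes of receptors and binding proteins for these peptides, 16 reached 1 TPM in both libraries and 9 were under 1 TPM in both. Among all protein-coding genes, 57.8% reached 1 TPM in both, so this count does not set the list apart. For somatostatin and cortistatin, which act through inhibitory receptors, Sstr4 had 34.83 and 32.16 TPM, Sstr1 11.29 and 10.47, Sstr3 9.54 and 8.56, Sstr2 8.31 and 8.95, and Sstr5 0.02 and 0.09 TPM. For neuropeptide Y, Npy2r, the presynaptic receptor, had 15.20 and 15.29 TPM, Npy1r 11.70 and 11.81 and Npy5r 4.04 and 4.01, while Npy4r had 0.01 in each and Npy6r was at 0. Cholecystokinin had Cckbr, the brain receptor, at 3.01 and 2.34 TPM and Cckar at 0.03 and 0.00. Vipr1 had 7.04 and 7.38 TPM and Vipr2 0.37 and 0.63.

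Opioid receptors were led by the delta receptor Oprd1, which prefers enkephalins, at 4.71 and 4.45 TPM. The mu receptor Oprm1 had 1.78 and 3.12 TPM, and the kappa receptor Oprk1, on which dynorphins act, 0.57 and 0.58. Tachykinin receptors were low, with Tacr1, the substance P receptor, at 0.86 and 0.59 TPM, Tacr3 at 0.98 and 0.57 and Tacr2 at 0.09 and 0.02. For corticotropin-releasing hormone, Crhr1 had 2.76 and 2.79 TPM, Crhr2 1.39 and 1.35, and the binding protein Crhbp 9.74 and 7.45. Neurotensin had the highest receptor genes of the list, the sorting receptor Sort1, which also binds many other proteins, at 144 and 137 TPM and Ntsr2, known from astrocytes, at 80.39 and 78.83, with the high-affinity receptor Ntsr1 at 1.60 and 0.98.

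The balance of precursor to receptor differed between the systems. Cck had 92.1 and 115 times the summed TPM of its 2 receptor genes, whereas the 3 neurotensin receptor genes summed to 34.8 and 48.7 times Nts. Without Sort1, left out after the values were seen, Ntsr1 and Ntsr2 summed to 12.7 and 18.0 times Nts. Sst had 2.71 and 2.46 times its 5 receptor genes, Npy 1.72 and 1.60 times its 5, and Penk 2.48 and 2.22 times the sum of Oprd1 and Oprm1. For Vip the receptors were 1.04 and 1.37 times the precursor, and for Crh 3.37 and 4.93 times. Pdyn had 6.49 and 9.67 times the level of Oprk1, and Tac1 1.82 and 2.97 times the sum of its 3 receptor genes. These are ratios of RNA levels in whole tissue.

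Between the libraries, 21 of the 26 had enough counts to be tested. Of those, 3 passed the adjusted p, all higher in replicate 1 (background in that direction 4.83%). Ntsr1 was the only one apart, 1.60-fold (adjusted p = 0.0131, exact binomial test), in the same direction as Nts. Crhbp was 1.28-fold higher (adjusted p = 0.0275, exact binomial test) and Sort1 1.03-fold (adjusted p = 0.0121, exact binomial test). The median log2 ratio of the list was -0.04.

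**Figure D4:**
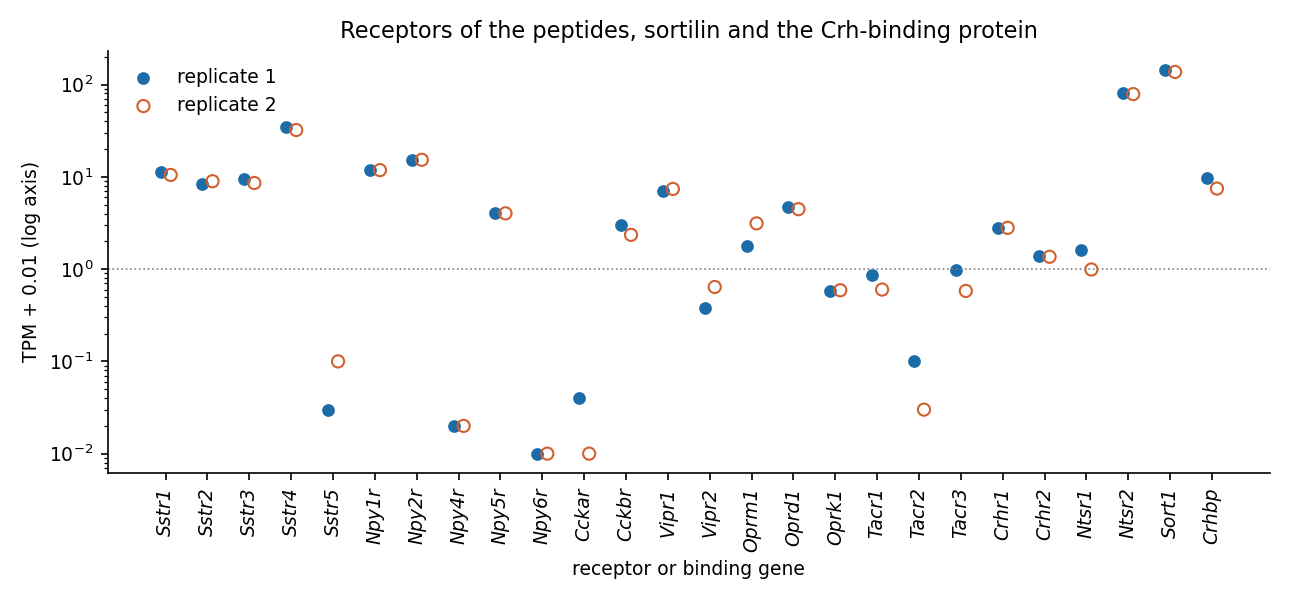
TPM + 0.01 (log axis) of the 26 receptor and binding genes in replicate 1 (filled) and replicate 2 (open), grouped by peptide; the dotted line marks 1 TPM. Sort1 and Ntsr2 stand highest, and Npy6r, Npy4r, Sstr5, Tacr2 and Cckar lie lowest in both libraries.

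Genes of the machinery that turns precursors into peptides were expressed, and of them only Cpe stood above every precursor. Of 23 fixed genes of processing and dense-core granules, 22 reached 1 TPM in both libraries and Dpp4, a peptidase, was at 0.28 in each. The carboxypeptidase Cpe had 1193 and 1130.2 TPM, the granule protein Ptprn 158 and 147, and the convertase inhibitor Pcsk1n 159.8 and 144. None was apart between the libraries, and 7 passed the adjusted p, all higher in replicate 1, where 4.83% of all tested genes passed in that direction. Those 7 had 2945 to 49213 counts per library and differed by 1.04-fold to 1.14-fold. At such depth the test passes small folds. The background also covers genes of far fewer counts, so the shares are not compared at like depth. The list's median log2 ratio was -0.07, and 16 of 23 genes pointed to replicate 1, beside 50.6% of all tested genes. For Cpe, which had the most counts of these, replicate 1 was 1.04-fold higher (adjusted p = 1.93e-08, exact binomial test).

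Against 28 other fixed peptide precursors, the 10 genes held 79.4% and 80.8% of the summed TPM of all 38, and 7 of them were among the 10 highest. The third place was taken by Vgf, a granin-like growth factor-induced precursor, at 87.29 and 73.19 TPM, and Grp (16.43 and 12.93 TPM) and Agt (13.84 and 12.19 TPM) came between Penk and Vip. By the gene table, 10 of the 28 reached 1 TPM in both libraries and 16 were under it in both, among them Pomc, Avp, Oxt, Trh and Gal. Of those 16, 6 were at 0 in both (Hcrt, Rln3, Nmu, Nms, Uts2b and Ucn3). In the second table, Pomc (2.01 and 1.74 TPM) and Npw (1.99 and 1.33) were above 1 in both libraries, and Oxt had 1.30 and 0.969. Vgf passed the adjusted p, 1.12-fold higher in replicate 1 (adjusted p = 3.74e-05, exact binomial test), and no gene of the list was apart.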

How the data were processed

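Gene tables, a first and a second transcript table of 2 hippocampal libraries were used. Per the file headers, the authors' gene and first transcript tables have the columns RSEM writes: an expected count, TPM, a percent for how much of its gene a transcript holds, and a posterior SD of the count. The second transcript table deposited by the authors has the columns kallisto writes, an estimated count and TPM. Genome mm10 and GENCODE M21 are per the deposited description. The aligner, program versions and strandedness were not given in the sources used here.

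Expected counts were rounded, scaled by TMM (edgeR 4.0.16, R 4.3.3) and set against each other in an exact binomial test, two-sided (scipy 1.17.1), adjusted by Benjamini-Hochberg over the 18270 genes whose expected count averaged 10 or more. Genes were called apart at an adjusted p under 0.05 and at least 1.5-fold; 0.5 was added to counts for folds. Intervals are exact 95% binomial intervals on 1 library per animal, so they cover counting error only. Reads carry no molecular identifiers, so even that error may be understated. The procedure was run on simulated counts drawn with counting error alone, as the test assumes. Those counts hold no spread between animals, so the run cannot show how the calls fare between real animals. Alternatives were other scalings (total gene counts, DESeq2 1.42.0 size factors, ERCC totals), count filters, fold minimums, TPM thresholds and the second table. Promoters are RefSeq's (GRCm38.p6), and exons were read from mm10 with GENCODE M21.

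The members and the 12 gene lists were chosen with earlier results of these data known. Named are all 10 members, and of each list the 3 highest genes, those apart and those below 1 TPM throughout, every receptor gene, and transcripts with at least 5% of their gene in either table. Genes named beyond this rule are marked in the text. A gene that the rule would name is not reported here. No protein sequences were used here.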

Additional observations from a re-analysis of the deposited data

How the results depend on the processing

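No paired analysis was possible because both libraries belong to 1 group and each replicate number occurs in 1 library. Leaving out a library ends every test between them; without replicate 1 or 2, the number of precursors at 1 TPM or more was 9 and 10. The number of precursors apart was 0 under every scaling, filter and table tried and with a 2-fold minimum, and 3 with no minimum fold. Over all genes, 344 were apart, and 112 with a mean count of at least 100 (fewer genes tested), 186 with a 2-fold minimum and 2074 with no minimum fold; other scalings, no filter and the second table gave 318 to 378. Penk turned from 0.04 to -0.01 on the log2 scale in the second table, and the median of the excitatory neuron list from -0.01 to 0.03 with ERCC totals, a scaling that moved the median of all genes to 0.04; the cause of the Penk change was not tested. The level of every precursor moved in the second table and on rescaling over protein-coding genes. Counts of 22 to 63 limit Crh, Cort and Tac1.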
